A study of Mus musculus with 64 samples.

Results

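The 10 genes described here are transcripts of Kupffer cells, the resident macrophages of the liver, together with those of the complement protein C1q that these cells make. They were taken from the UMI count table by symbol: Clec4f, Vsig4, Timd4, Marco, Cd5l, C1qa, C1qb, C1qc, Adgre1 and Csf1r. All 10 of the 10 symbols had a row among the 55487 genes of the table, and all 10 passed the filter on low counts that left 10097 genes for testing.

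The livers came from male C57BL/6J mice fed ad libitum, which had received an AAV8 vector 4 weeks earlier. In 32 libraries the vector carried a hairpin against Acsf3 (sh-Acsf3) and in 32 a control hairpin (sh-Ctl), so every mouse carried an AAV8 vector and a hairpin. Acsf3 encodes a mitochondrial enzyme that activates malonate, and the knockdown was described as specific to the liver. Sampling covered 8 time points from ZT0 to ZT21 in steps of 3 h (ZT, zeitgeber time, counts hours since the lights came on), each with 4 replicates of either treatment. RNA was extracted from frozen whole liver and counted by BRB-seq, a pooled 3′-end method that counts unique molecular identifiers (UMIs). The labels do not say that replicates are separate animals, so p-values measure the spread between these samples. In such bulk samples, fewer cells of a type and less RNA per cell cannot be told apart.

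Kupffer cells lie in the sinusoids, where they clear particles, microbes and aged blood cells from portal blood. Survival of resident macrophages depends on the receptor encoded by Csf1r. C1q starts the classical complement pathway: chains encoded by C1qa, C1qb and C1qc assemble into a molecule that recognises antibody bound to antigen and dying cells, and then activates the proteases C1r and C1s. Unlike most complement proteins, which hepatocytes make, C1q comes mainly from macrophages.

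The 3 C1q genes lie side by side on the minus strand of mouse chromosome 4 (GRCm38, GENCODE M21). C1qb spans chr4:136880129-136886187, C1qc chr4:136889804-136893065 and C1qa chr4:136895917-136898803. The cluster is 18.7 kb long, holds no other annotated gene, and its genes are separated by 3616 and 2851 bases. RefSeq promoter sequences were matched for 7 of the 10 members, and not for C1qa, Adgre1 and Csf1r. The sequences of C1qb and C1qc are shown because these neighbouring genes had differences between treatments of 0.67 and 0.62 on the log2 scale, and that of Marco because its difference was the largest of the 10. Each runs from 250 bases before to 50 bases after the RefSeq start (GRCm38.p6, minus strand, 5′ to 3′). All distances below are counted from this RefSeq start. That of C1qc lies inside the GENCODE span given above, as does most of its window. Counted from the GENCODE start, the C1qc distances would be smaller. Capitals mark AGGAAGT, a core bound by the macrophage factor PU.1, and TCATGTG, bound by factors of the MITF family, each on either strand.
C1qb, chr4:136886151-136886450: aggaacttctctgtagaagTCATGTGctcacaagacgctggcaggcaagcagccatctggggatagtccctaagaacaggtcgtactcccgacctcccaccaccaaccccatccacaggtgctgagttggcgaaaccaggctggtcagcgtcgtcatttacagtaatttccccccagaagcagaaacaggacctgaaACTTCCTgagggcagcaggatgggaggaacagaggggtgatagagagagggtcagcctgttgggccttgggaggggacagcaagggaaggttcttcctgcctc
C1qc, chr4:136892865-136893164: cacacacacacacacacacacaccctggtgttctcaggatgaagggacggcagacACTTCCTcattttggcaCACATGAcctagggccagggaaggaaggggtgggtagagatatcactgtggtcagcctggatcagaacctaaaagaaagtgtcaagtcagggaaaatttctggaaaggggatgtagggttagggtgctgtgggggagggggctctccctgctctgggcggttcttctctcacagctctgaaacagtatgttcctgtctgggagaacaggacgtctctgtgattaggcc
Marco, chr1:120504975-120505274: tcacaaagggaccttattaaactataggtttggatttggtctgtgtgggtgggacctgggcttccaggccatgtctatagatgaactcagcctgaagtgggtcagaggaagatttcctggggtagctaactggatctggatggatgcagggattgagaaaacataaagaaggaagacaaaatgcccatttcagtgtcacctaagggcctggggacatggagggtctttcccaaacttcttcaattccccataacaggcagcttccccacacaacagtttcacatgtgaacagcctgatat
AGGAAGT was found on the opposite strand (as ACTTCCT) at 53 bases before the C1qb start and at 195 bases before the C1qc start. TCATGTG was found as printed at 231 bases before the C1qb start, and on the opposite strand (as CACATGA) at 178 bases before the C1qc start. AGGAAGT occurs in 9.35% and TCATGTG in 3.77% of the 32851 promoters of this length. Of the 7 member promoters, C1qb and C1qc held each of them, and the printed window of Marco held neither exact string. Near matches were not counted, so sites with other letters may be present. In all, 6 motifs were searched on both strands. The DR4 repeat bound by LXR was in 0 of the 7 and in 0.0152% of all promoters, and GTGGGAA, bound by RBPJ, in 0 of the 7 and in 6.38%. TGCTGAC, bound by MAF factors (4.67% of all promoters), and the composite element bound by PU.1 with an IRF factor (2.72%), were each in 1 of the 7, Timd4. The letters were chosen after the sequences had been read, the capitals do not overlap, and a match is a description of the sequence only.

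Averaged over the 8 times, 5 of the 10 members were higher in sh-Acsf3 than in sh-Ctl livers and 0 were lower. The 5 were Marco, the 3 C1q chains and Vsig4 (edgeR quasi-likelihood test, Benjamini-Hochberg adjusted p below 0.05 over all genes). Across all genes tested, 8.26% were called higher, 6.21% lower and 14.5% in either direction. When scaled by library size alone, the same 5 members were called, while the split over all genes was 1125 higher and 247 lower, against 834 and 627. The fitted difference was above 0 for 9 of the 10 members, and for 47.3% of all genes. The median difference of the members was 0.34 on the log2 scale, against -0.01 for all genes tested. Clec4f, Cd5l, Adgre1, Csf1r and Timd4 did not pass. At an unadjusted p of 0.05, 9 of the 10 members passed, against 2712 of 10097 genes.

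**Figure D1:**
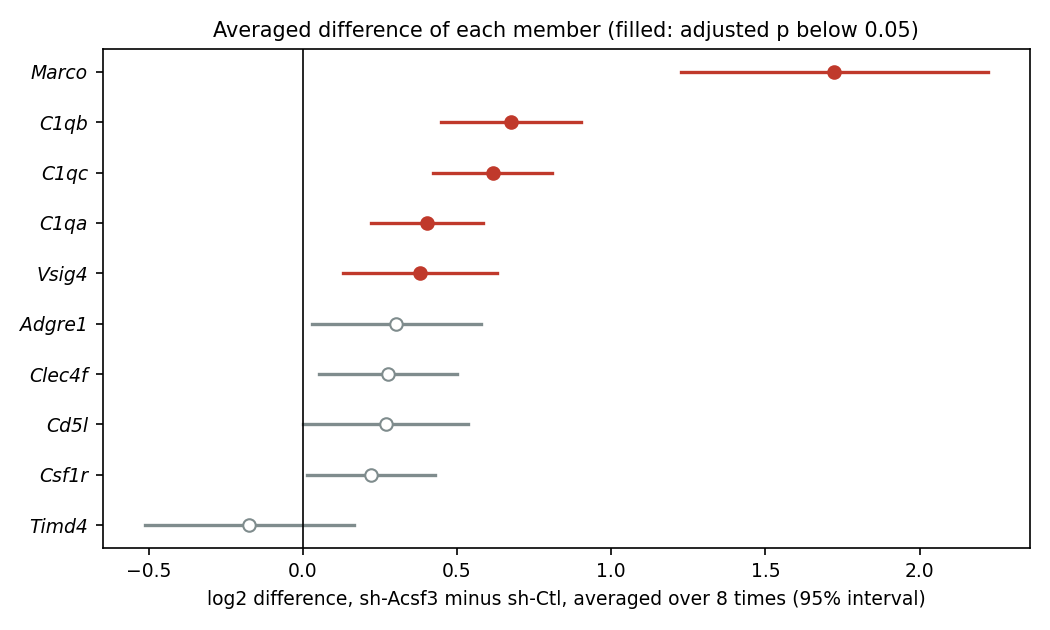
Averaged log2 difference (sh-Acsf3 minus sh-Ctl, 32 libraries each over 8 times) of each member, with its 95% interval. Filled red points passed the test at an adjusted p below 0.05 and open grey points did not. Marco lies farthest to the right at 1.72, the C1q chains lie between 0.40 and 0.67, and only the Timd4 point lies below 0.

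Marco encodes a class A scavenger receptor with a collagen-like stalk that binds bacteria and particles. Its counts were low: 297 UMIs were counted in the 32 sh-Acsf3 libraries and 98 in the 32 sh-Ctl libraries. In UMI counts scaled to library size (CPM), its level ran from 0.675 through a median of 2.35 to 10.1 in sh-Acsf3 livers, and from 0 through a median of 0.762 to 5.47 in sh-Ctl livers. The ranges overlapped, and 31 of 32 sh-Acsf3 libraries lay above the sh-Ctl median. The mean was 2.89 ± 1.90 CPM in sh-Acsf3 and 0.940 ± 0.985 CPM in sh-Ctl livers (SD within times, n = 32 each). The fitted fold was 3.30, with a 95% interval from 2.34 to 4.66 (adjusted p = 2.52e-07, edgeR). Its sh-Ctl levels were mostly too low for the filter on low counts, so Marco was tested through its sh-Acsf3 libraries. It was not tested at a mean CPM of at least 5, and was also called higher without a filter. Marco was at 0 in 0 sh-Acsf3 libraries and in 3 sh-Ctl libraries (ZT0 replicate 4, ZT3 replicate 4 and ZT21 replicate 3). For the 3, a count of 0 allows a level of up to 1.09, 2.25 and 1.22 CPM, in the order given, with counting error alone. The other 9 members were counted in all 64 libraries.

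Each of the 3 C1q chains was higher in sh-Acsf3 livers. C1qb, the B chain, ran from 30.6 through a median of 47.9 to 105.1 CPM in sh-Acsf3 and from 16.9 through 31.5 to 64.9 CPM in sh-Ctl livers. Its means were 50.8 ± 16.5 CPM in sh-Acsf3 and 31.8 ± 11.5 CPM in sh-Ctl livers, a log2 difference of 0.67 ± 0.11 (SE; adjusted p = 1.44e-05, edgeR). For C1qb, as for C1qc, 31 of 32 sh-Acsf3 libraries lay above the sh-Ctl median, while the ranges overlapped. C1qc, the C chain, ran from 37.2 through a median of 58.9 to 105.8 CPM in sh-Acsf3 and from 22.9 through 37.5 to 87.3 CPM in sh-Ctl livers. Its fold was 1.53, with a 95% interval from 1.34 to 1.75. C1qa, the A chain, ran from 27.6 through a median of 39.1 to 68.9 CPM in sh-Acsf3 and from 19.6 through 28.9 to 59.5 CPM in sh-Ctl livers. It had the smallest difference of the 3 chains, 0.40 ± 0.09 (adjusted p = 0.00096, edgeR), with 29 of 32 sh-Acsf3 libraries above the sh-Ctl median. The differences between the chains' responses were not tested. The nearest tested genes beside the cluster were Kdm1a, 277.4 kb from the C1qb end, at 0.01 ± 0.08, and Zbtb40, 80.9 kb from the C1qa start, at -0.33 ± 0.15. Neither passed (adjusted p = 0.98 and 0.15, edgeR), and both were named because of their position.

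Vsig4 encodes the complement receptor CRIg, through which Kupffer cells capture particles coated with C3 fragments. It lies on chromosome X (chrX:96247203-96293438). Its level ran from 8.40 through a median of 21.5 to 36.1 CPM in sh-Acsf3 and from 8.06 through 15.7 to 38.3 CPM in sh-Ctl livers. The log2 difference was 0.38 ± 0.12 (adjusted p = 0.0306, edgeR), and 29 of 32 sh-Acsf3 libraries lay above the sh-Ctl median. This call depended on single libraries. Without sh-Acsf3 ZT6 replicate 1 or without sh-Acsf3 ZT15 replicate 2 it was lost, and it was also lost when all libraries numbered replicate 1, 3 or 4 were left out, with adjusted p up to 0.213.

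The other 5 members did not pass. Clec4f, a C-type lectin made in mouse by Kupffer cells (chr6:83644542-83656187), averaged 22.0 ± 7.27 CPM in sh-Acsf3 and 17.7 ± 5.78 CPM in sh-Ctl livers. Its log2 difference was 0.28, with a 95% interval from 0.05 to 0.50 (adjusted p = 0.0885, edgeR). Timd4 encodes a receptor for phosphatidylserine that marks long-lived resident Kupffer cells (chr11:46810800-46844332). It averaged 3.93 ± 1.71 CPM in sh-Acsf3 and 4.37 ± 2.64 CPM in sh-Ctl livers, a log2 difference of -0.17 with a 95% interval from -0.51 to 0.17 (adjusted p = 0.569, edgeR). The medians of Timd4, 3.97 CPM in sh-Acsf3 and 3.82 CPM in sh-Ctl livers, lay in the opposite order to the means.

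Cd5l encodes a secreted protein of tissue macrophages that protects them from apoptosis (chr3:87357881-87371073). It averaged 48.3 ± 15.1 CPM in sh-Acsf3 and 40.8 ± 20.5 CPM in sh-Ctl livers (log2 difference 0.27 ± 0.13, adjusted p = 0.182, edgeR). Adgre1, which encodes the F4/80 antigen (chr17:57358691-57483527), averaged 14.1 ± 4.87 CPM in sh-Acsf3 and 11.6 ± 4.93 CPM in sh-Ctl livers (0.30 ± 0.14, adjusted p = 0.135). Csf1r, the receptor for the growth factors CSF1 and IL-34 (chr18:61100598-61132149), averaged 18.7 ± 5.49 CPM in sh-Acsf3 and 15.8 ± 4.95 CPM in sh-Ctl livers (0.22 ± 0.10, adjusted p = 0.151). Csf1r overlaps Hmgxb3 on the opposite strand, and the strand used in counting is not given in the sources used here, so their reads may be shared. Hmgxb3 had a difference of 0.08 ± 0.10. No other member overlaps an annotated gene.

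A control library stood apart from the rest. In sh-Ctl ZT6 replicate 1, which held 6.06 M UMIs, the mean log2 deviation of the 10 members from their group means was 0.97, the highest of 64 libraries. It held 3438 UMIs of the members, against 252 to 3438 with a median of 600.5 over the sh-Ctl libraries, and 13.6 CPM of Timd4, 120.1 CPM of Cd5l and 28.7 CPM of Adgre1. Without this library, 9.15% of all genes were called higher, and 8 members were: the same 5, Clec4f (0.32 ± 0.11, adjusted p = 0.0347, edgeR), Cd5l (0.35 ± 0.12, adjusted p = 0.0396) and Adgre1 (0.39 ± 0.12, adjusted p = 0.0228). Timd4 was then at -0.03 ± 0.15. This library was singled out for its high member levels, so leaving it out raises the members' differences by construction. The next highest deviations were 0.75 in sh-Acsf3 ZT15 replicate 2 and 0.73 in sh-Ctl ZT18 replicate 2, and the lowest was -0.81 in sh-Acsf3 ZT15 replicate 4. Without sh-Acsf3 ZT15 replicate 2, 4 members were called higher, as were 844 of 10263 genes.

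**Figure D2:**
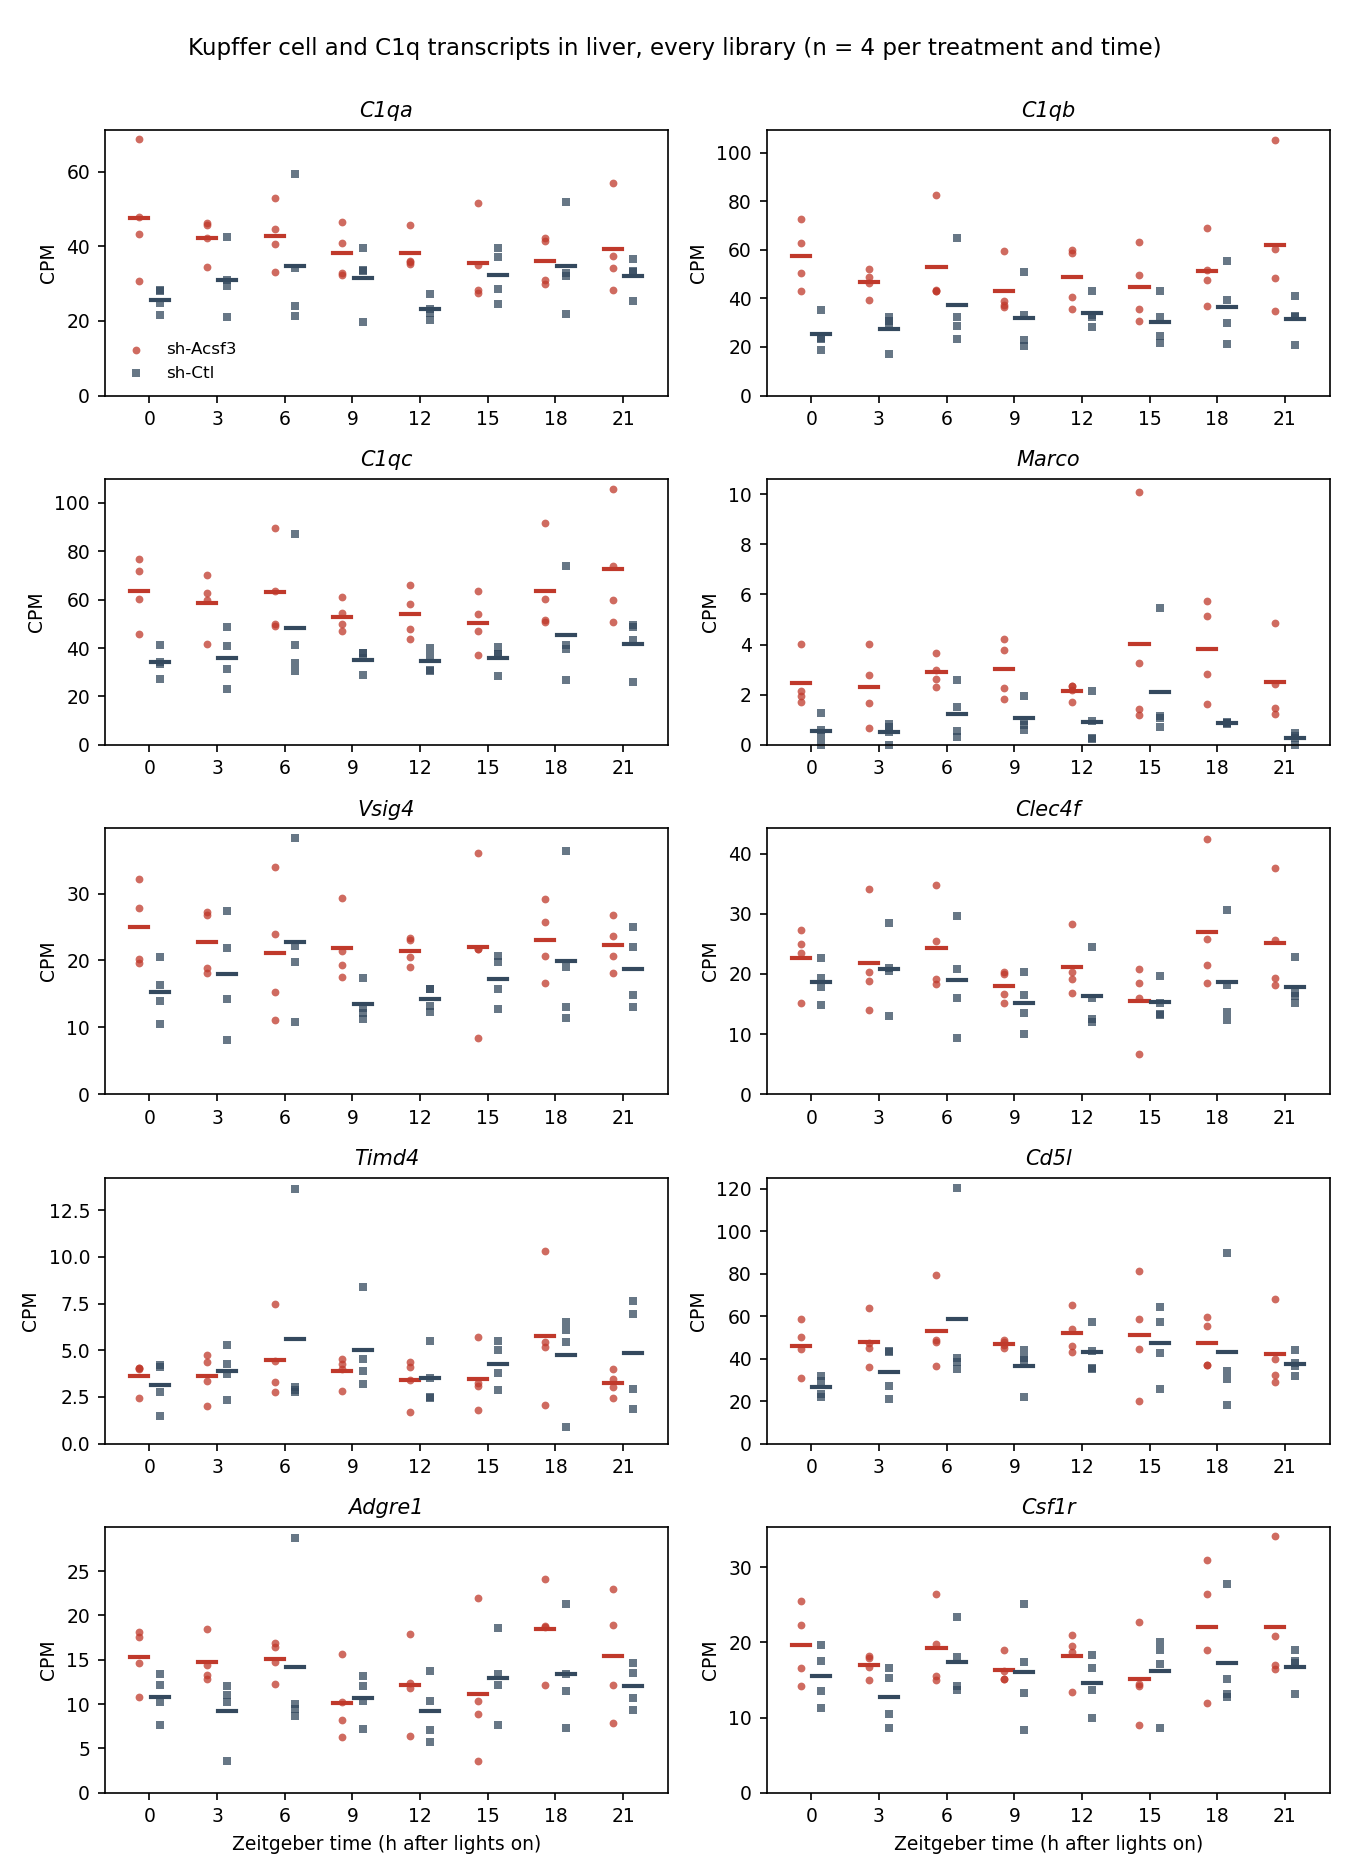
CPM of each member (vertical axis, from 0) in every library against zeitgeber time in hours. Red circles are sh-Acsf3, drawn left of the dark squares of sh-Ctl at each time, with 4 libraries each and a bar at their mean. The sh-Ctl ZT6 library at 120.1 CPM of Cd5l and 13.6 CPM of Timd4 lies above the other libraries of its group, and C1qc shows separated groups at ZT0, ZT9, ZT12 and ZT21.

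At single times, with 4 libraries against 4, 0 of the 80 differences of the 10 members passed the test (edgeR, adjusted over all genes at each time), while 17 had an unadjusted p below 0.05, as did 8.44% of the 80776 differences of all genes. DESeq2 called 1 of them, C1qb at ZT0, and limma-voom 0. Of all genes, 0.515% were called at ZT0, 0.0693% at ZT3, 0.218% at ZT6, 0.357% at ZT9, 1.4% at ZT12, 0.0297% at ZT15, 0.168% at ZT18 and 0.317% at ZT21. The fitted difference was above 0 in 69 of the 80. In 15 of the 80 all 4 sh-Acsf3 libraries lay above all 4 sh-Ctl libraries, and in 0 all lay below. Over all genes and times, 2.8% of the pairs had all sh-Acsf3 libraries above and 2.14% had all below.

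ZT0 held 4 of these 15 separated cases: the 3 C1q chains and Marco. C1qa measured 48.0, 68.9, 43.2 and 30.6 CPM in sh-Acsf3 livers at ZT0, against 28.4, 21.5, 28.0 and 24.7 CPM in sh-Ctl livers. C1qb measured 62.6, 72.5, 43.2 and 50.5 CPM in sh-Acsf3 livers at ZT0, against 23.8, 18.8, 23.3 and 35.3 CPM in sh-Ctl livers. The groups did not overlap, and the log2 differences at ZT0 were 0.91 ± 0.26 for C1qa and 1.17 ± 0.33 for C1qb (adjusted p = 0.0979 and 0.0961, edgeR, not passed). C1qc was also separated, and was so at 4 of the 8 times: ZT0, ZT9, ZT12 and ZT21. At ZT9 it measured 49.8, 54.4, 60.9 and 47.0 CPM in sh-Acsf3 livers, against 37.9, 35.9, 28.9 and 37.7 CPM in sh-Ctl livers.

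Marco was separated at ZT0, ZT18 and ZT21. At ZT18 it measured 2.81, 1.61, 5.73 and 5.15 CPM in sh-Acsf3 livers, against 0.910, 0.885, 0.867 and 0.817 CPM in sh-Ctl livers. At ZT21 it measured 1.22, 2.42, 4.87 and 1.49 CPM in sh-Acsf3 livers, against 0.292, 0.346, 0 and 0.465 CPM in sh-Ctl livers. This was the time of its largest fitted difference (2.95 ± 0.96 on the log2 scale, adjusted p = 0.161, edgeR, not passed). It rested on 14 UMIs in the sh-Acsf3 and 3 in the sh-Ctl libraries. The sh-Ctl count of 0 at ZT21 allows up to 1.22 CPM, which reaches the lowest sh-Acsf3 value, so counting error alone could undo this separation. At ZT15 its difference of 1.24 ± 0.52 rested on sh-Acsf3 replicate 2, with 10.1 CPM, and was -0.04 without that library. The highest sh-Ctl value of Marco, 5.47 CPM, was also at ZT15.

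The remaining separated cases were Vsig4 at ZT9 and ZT12, Cd5l at ZT9, Adgre1 at ZT3, C1qb also at ZT3 and C1qa also at ZT12. Vsig4 at ZT12 measured 20.5, 23.0, 19.0 and 23.3 CPM in sh-Acsf3 livers, against 15.7, 13.2, 15.7 and 12.3 CPM in sh-Ctl livers. Clec4f, Marco and the 3 C1q chains had a fitted difference above 0 at all 8 times, as did 5.74% of all genes. Timd4 was above 0 at 1 of 8 times, ZT0.

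**Figure D3:**
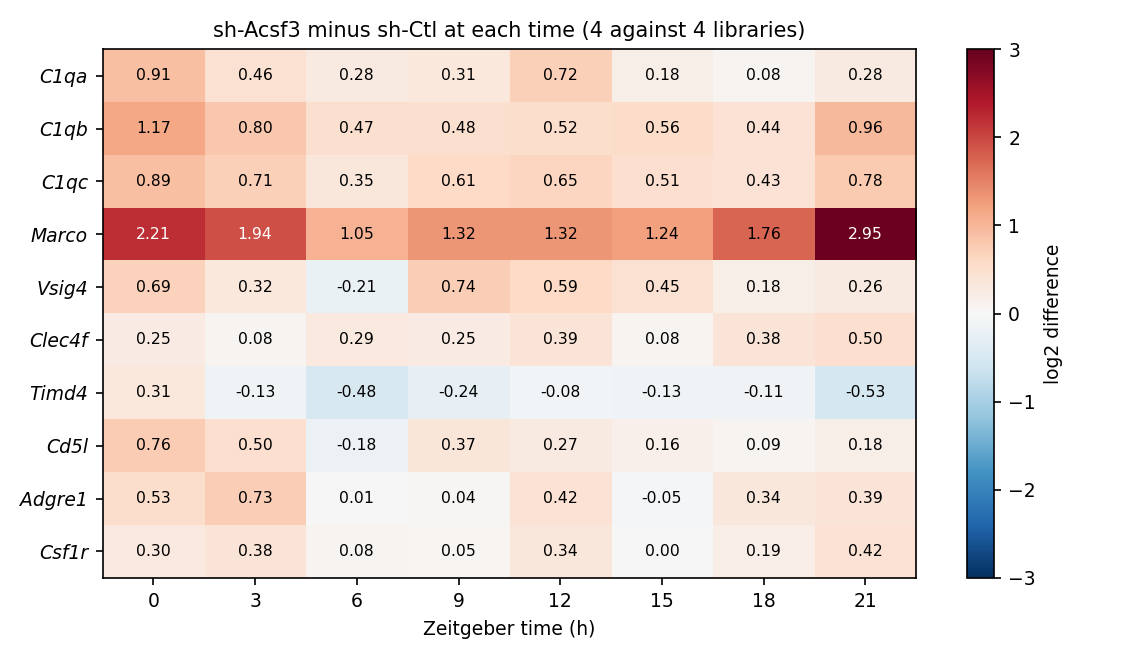
Fitted log2 difference (sh-Acsf3 minus sh-Ctl, 4 libraries each) of each member at each zeitgeber time, as colour and number, with red above 0. The Marco row runs from 1.05 at ZT6 to 2.95 at ZT21, and the Timd4 row is above 0 at ZT0 alone.

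The size of the difference was not shown to depend on the time of day. The test that the 8 differences are equal called 0 of the 10 members and 0 of all genes (edgeR; 0% of 10097, with 306 genes at an unadjusted p below 0.05, 0 of them members). DESeq2 and limma-voom also called 0 genes. Without a filter on low counts, 273 genes were called, 0 of them members, of which 4 had an unadjusted p below 0.05. A 24 h rhythm was called for 0 of 10 members in sh-Acsf3 livers and for 0 of 10 in sh-Ctl livers, against 19.6% of all genes in sh-Acsf3 and 19.4% in sh-Ctl livers (edgeR). No member had an unadjusted p below 0.05 in either treatment by edgeR, and DESeq2 gave 0 such members in sh-Acsf3 livers and 1 in sh-Ctl livers. In sh-Acsf3 livers the largest fitted amplitude was that of Adgre1, 0.30 ± 0.13 on the log2 scale with a peak at ZT23.3 (adjusted p = 0.396, edgeR), and that of Marco was 0.13 ± 0.16. In sh-Ctl livers the largest was that of Marco, 0.42 ± 0.16 with a peak at ZT11.9 (adjusted p = 0.181). Amplitudes, their SE and peaks came from least squares on log2 CPM with a prior count of 2, and the p-values from edgeR. A difference in rhythm between treatments was called for 0 members and 0 genes.

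Ratios of UMIs within a library compare members with each other without scaling by library size. Because BRB-seq counts 3′ ends, they are ratios of counted molecules and not of protein. The 3 C1q chains together gave 7.36 UMIs per Clec4f UMI over the sh-Acsf3 libraries and 5.91 over the sh-Ctl libraries, and the median over libraries was higher in sh-Acsf3 livers at 8 of 8 times. Per Csf1r UMI the chains gave 8.50 in sh-Acsf3 and 6.68 in sh-Ctl libraries, again higher at 8 of 8 times, and per Cd5l UMI 3.09 in sh-Acsf3 and 2.36 in sh-Ctl libraries, higher at 6 of 8. Marco gave 0.148 UMIs per Clec4f UMI in sh-Acsf3 and 0.0556 in sh-Ctl libraries, higher at 8 of 8 times and above the sh-Ctl median in 31 of 32 sh-Acsf3 libraries. Timd4 gave 0.195 UMIs per Clec4f UMI in sh-Acsf3 and 0.262 in sh-Ctl libraries, and its median ratio was higher in sh-Acsf3 livers at 0 of 8 times. This ratio lay above the sh-Ctl median in 12 of 32 sh-Acsf3 libraries. The pooled sh-Ctl value includes sh-Ctl ZT6 replicate 1, with 13.6 CPM of Timd4.

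Among the chains, C1qb gave 1.18 UMIs per C1qa UMI in sh-Acsf3 and 1.05 in sh-Ctl libraries, with a higher median at 7 of 8 times. The ratio of C1qb to C1qc was 0.857 in sh-Acsf3 and 0.808 in sh-Ctl libraries, higher at 5 of 8. The ratio of C1qa to C1qc was 0.729 in sh-Acsf3 and 0.767 in sh-Ctl libraries, with a higher median in sh-Acsf3 livers at 2 of 8 times. Vsig4 per Clec4f was 1.10 in sh-Acsf3 and 1.03 in sh-Ctl libraries, and Cd5l per Clec4f 2.38 in sh-Acsf3 and 2.51 in sh-Ctl libraries. The ranges over libraries overlapped for every one of these ratios, and none was tested.

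**Figure D4:**
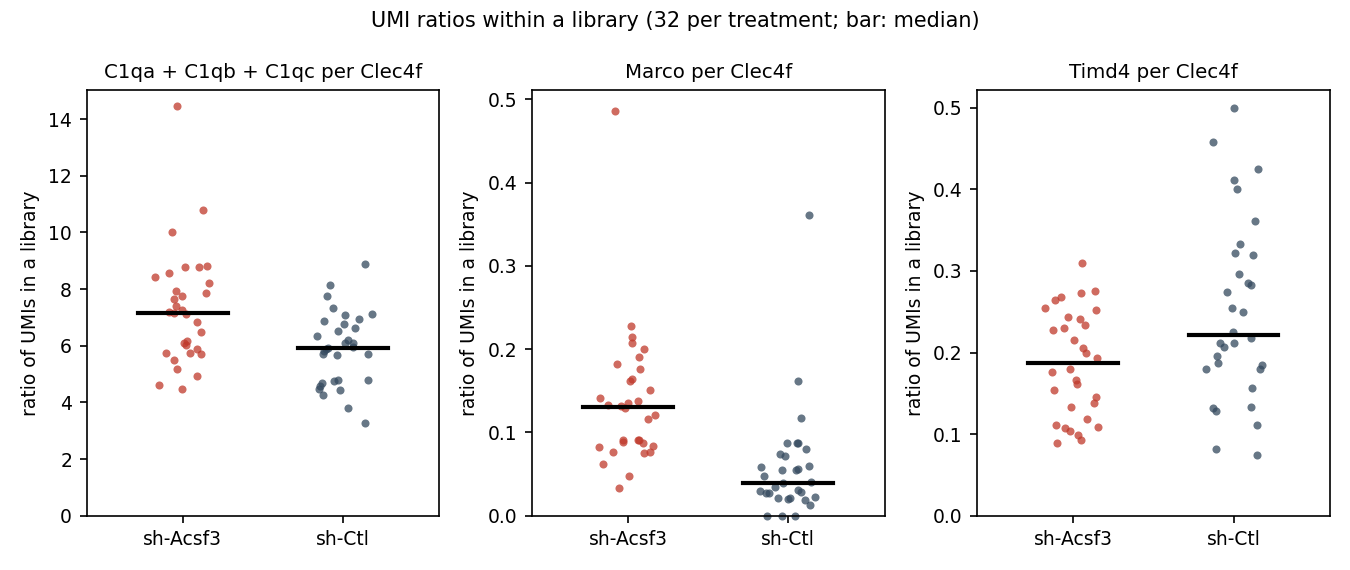
Ratio of UMIs in each library for the summed C1q chains, Marco and Timd4, each per Clec4f UMI, with sh-Acsf3 at the left and sh-Ctl at the right (32 libraries each, bar at the median). The medians were 7.17 in sh-Acsf3 and 5.93 in sh-Ctl for the C1q chains, 0.130 in sh-Acsf3 and 0.0397 in sh-Ctl for Marco, and 0.187 in sh-Acsf3 and 0.222 in sh-Ctl for Timd4.

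Within groups, the members varied together from library to library. Over the 64 libraries, the Pearson correlation of log2 deviations from the group means was 0.80 between C1qb and C1qc, 0.66 between C1qa and C1qc and 0.66 between C1qa and C1qb. The closest pair was Cd5l and C1qc at 0.85, and the loosest was Marco and C1qb at 0.21. Points of a pair share a library and its scaling, and the correlation of the members' mean deviation with library size was -0.04. The 8 other genes whose deviations were most like the members' mean, of 7767 ranked, were Ctss (0.86), Fcer1g (0.83), Sdc3 (0.81), Fcgr4 (0.80), Tyrobp (0.80), Lgmn (0.80), Cybb (0.77) and Itgal (0.77), against a median of -0.02 over all genes ranked. The same 8 genes had averaged differences between 0.24 (Sdc3) and 0.61 (Ctss), and Itgal alone did not pass (0.25 ± 0.12, adjusted p = 0.177, edgeR). Sdc3 and Fcgr4 did not pass without replicate 3 or without replicate 4, nor did Lgmn without replicate 3.

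Of 12 other genes known from Kupffer cells, 10 were tested, 1 was higher and 0 lower in sh-Acsf3 livers, and the median log2 difference was -0.01 (0.05 when scaled by library size alone or without the 4 sh-Ctl libraries that held over 1000 CPM of the acute phase gene Saa1). The gene that passed was Slc11a1, a metal transporter of phagosomes, at 4.81 ± 1.39 CPM in sh-Acsf3 and 3.19 ± 2.14 CPM in sh-Ctl livers (0.54 ± 0.17, adjusted p = 0.018, edgeR), and it did not pass without replicate 3 (adjusted p = 0.268) or without replicate 4 (adjusted p = 0.0665). Fcna, which encodes the lectin ficolin A, had a difference of -0.16 ± 0.10 (adjusted p = 0.314), Id3, a regulator of Kupffer cell development, 0.20 ± 0.09 (adjusted p = 0.159) and Il18bp, an inhibitor of IL-18, 0.24 ± 0.16 (adjusted p = 0.353). Spic and Hmox1 were below the filter. Without a filter, 4 of 12 were higher, as were 1233 of 23436 genes. Without the 4 sh-Ctl libraries high in Saa1, 2 of 10 were higher, as were 844 of 10190 genes. The summed level of the 12 genes ran from 232.5 to 497.9 CPM in sh-Acsf3 and from 219.0 to 351.9 CPM in sh-Ctl livers. Id3 alone averaged 121.1 ± 35.3 CPM in sh-Acsf3 and 106.6 ± 32.1 CPM in sh-Ctl livers, so the sum mostly follows a few abundant genes.

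Genes shared by macrophages in general were higher in sh-Acsf3 livers in 13 of 18 tested cases, with 0 lower and a median of 0.58. Sirpa, which encodes an inhibitory receptor for CD47, averaged 22.1 ± 4.78 CPM in sh-Acsf3 and 12.1 ± 4.09 CPM in sh-Ctl livers (0.84 ± 0.09, adjusted p = 6.98e-11, edgeR). Ms4a7, a membrane protein of macrophages, averaged 2.90 ± 1.75 CPM in sh-Acsf3 and 0.651 ± 0.635 CPM in sh-Ctl livers (2.07 ± 0.27). With 263 UMIs in sh-Acsf3 and 67 in sh-Ctl libraries, it was tested mainly through its sh-Acsf3 libraries. Its direction was thus in part set by the filter on low counts. Without a filter, 13 of the 18 were again higher, as were 1233 of 23436 genes. Laptm5, a lysosomal protein of blood cells, and Axl, a receptor for apoptotic cells, differed by 0.89 ± 0.11 and 0.77 ± 0.10. Aif1, Cd14, Mertk, Mrc1 and Msr1 did not pass, with differences between -0.25 and 0.30.

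Genes known from recruited monocytes and from macrophages of injured or scarred liver were higher in 7 of 7 tested cases, with a median of 0.68, while the 7 others of the list were below the filter. Without replicate 3, 4 of 7 tested were higher. The filter needs enough counts in 4 libraries, so a gene near 0 in sh-Ctl livers, such as Mmp12, was tested through its sh-Acsf3 libraries. The direction of such genes was in part set by the filter. Without a filter, 13 of 14 were higher, as were 1233 of 23436 genes. Mmp12, which encodes macrophage elastase, averaged 4.47 ± 2.79 CPM in sh-Acsf3 and 0.168 ± 0.251 CPM in sh-Ctl livers (4.81 ± 0.33, adjusted p = 1.91e-17, edgeR). Lgals3, which encodes galectin-3, averaged 20.0 ± 9.45 CPM in sh-Acsf3 and 7.17 ± 3.54 CPM in sh-Ctl livers (1.49 ± 0.16). Spp1 encodes osteopontin, which bile duct cells also make, and Cybb a subunit of the phagocyte oxidase, and they differed by 0.68 ± 0.12 and 0.56 ± 0.11. Among those not tested, Gpnmb had 115 UMIs in sh-Acsf3 and 7 in sh-Ctl libraries, and Trem2 152 in sh-Acsf3 and 38 in sh-Ctl libraries. These were chosen after their values were seen and have no test with the filter.

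**Figure D5:**
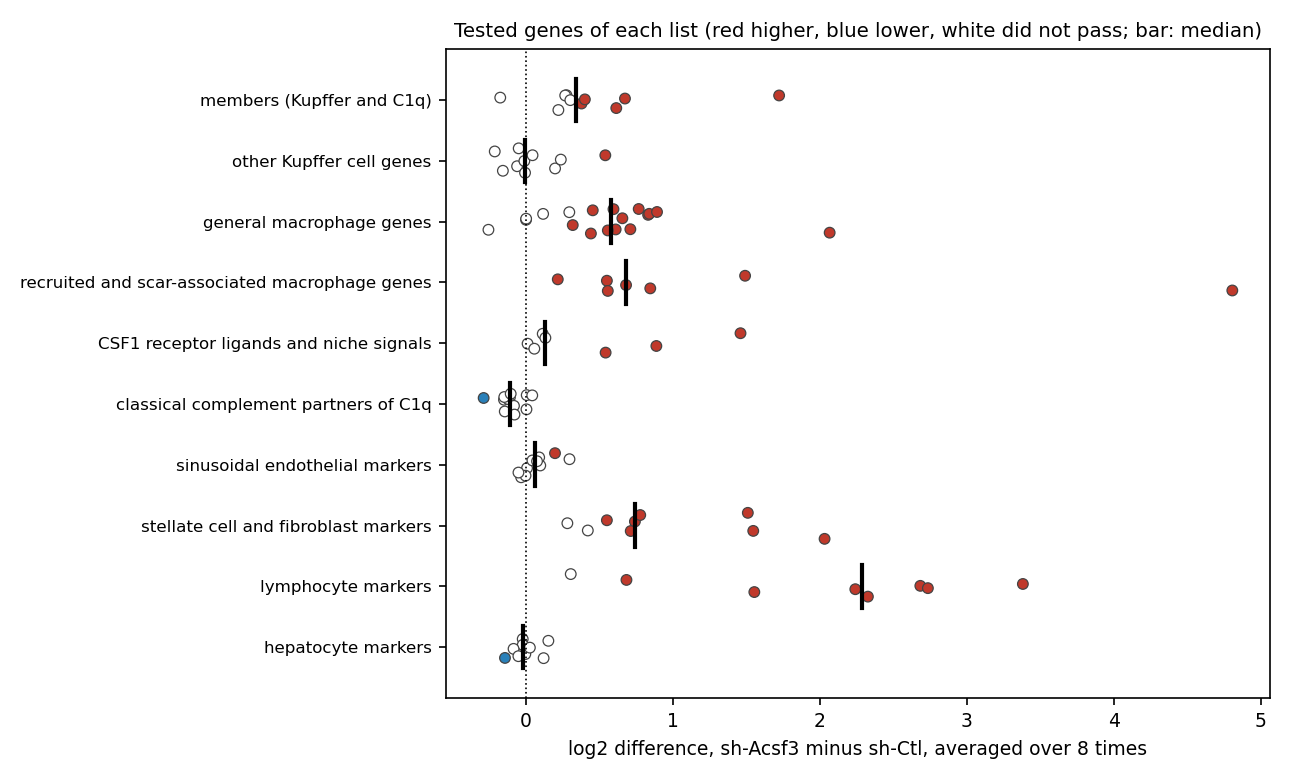
Averaged log2 difference (sh-Acsf3 minus sh-Ctl) of every tested gene of 10 lists, 1 point per gene, with a black bar at the list's median. Red points were higher and blue points lower at an adjusted p below 0.05. The other Kupffer cell genes have a median of -0.01, the general macrophage genes 0.58, the recruited and scar-associated genes 0.68 and the complement partners of C1q -0.11.

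Of 14 genes of the complement proteases and regulators that act after or beside C1q, 12 were tested, 0 were higher and 1 was lower in sh-Acsf3 livers, with a median of -0.11. Without the 4 sh-Ctl libraries high in Saa1, 1 was higher and 1 lower, with a median of -0.02. C2, the protease that joins C4 in the C3 convertase, averaged 105.1 ± 11.9 CPM in sh-Acsf3 and 128.2 ± 19.2 CPM in sh-Ctl livers (-0.29 ± 0.05, adjusted p = 5.30e-06, edgeR). Masp1, a protease of the lectin pathway, had a difference of -0.10 ± 0.04 (adjusted p = 0.104), and C3, on which the pathways converge, -0.14 ± 0.07 (adjusted p = 0.146). Without the libraries high in Saa1, C3 was at -0.03 ± 0.05. Of 6 tested genes listed as receptors and binders of C1q, 1 was higher. It was Cd93, at 10.0 ± 2.32 CPM in sh-Acsf3 and 7.51 ± 2.48 CPM in sh-Ctl livers (0.41 ± 0.10, adjusted p = 0.00133, edgeR, and 0.0533 without replicate 4). Cr1l, Scarf1 and C1qbp had differences of -0.07, -0.12 and -0.01 and did not pass. Whether each listed product, Cr1l among them, binds C1q was not tested.

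Among signals that maintain Kupffer cells, 3 of 7 tested genes were higher and 0 lower, with a median of 0.13. Vcam1, an adhesion molecule of the sinusoid, averaged 12.2 ± 3.07 CPM in sh-Acsf3 and 4.65 ± 1.83 CPM in sh-Ctl livers (1.46 ± 0.11, adjusted p = 4.63e-17, edgeR). Gdf2, which encodes the stellate cell signal BMP9, and Tgfb1 differed by 0.54 ± 0.10 and 0.89 ± 0.20. Bmp2 had a difference of 0.13 ± 0.08, and Csf1, the ligand of the Csf1r product, of 0.12 ± 0.10. Neither passed (adjusted p = 0.301 and 0.523).

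Markers of other cells of the liver also differed between treatments, and their part in the members' differences was not tested. Lymphocyte markers were higher in 7 of 8 tested cases (of 12 listed) with a median of 2.28, and their summed level ran from 28.2 to 251.8 CPM in sh-Acsf3 and from 13.1 to 54.1 CPM in sh-Ctl livers. Markers near 0 in sh-Ctl livers, such as Gzma (0.465 CPM), were tested through their sh-Acsf3 libraries. Without a filter, 11 of 12 were higher, as were 1233 of 23436 genes. The B cell marker Cd79a, which was not tested, had 3 UMIs over the 32 sh-Acsf3 libraries and 0 over the 32 sh-Ctl libraries. Ccl5, a chemokine of T cells, differed by 3.38 ± 0.14, Nkg7 by 2.68 ± 0.20, Trbc2 by 2.24 ± 0.20 and Gzma by 2.74 ± 0.28. Stellate cell and fibroblast markers were higher in 7 of 9 tested cases (of 10) with a median of 0.74, and ran from 315.1 to 672.4 CPM in sh-Acsf3 and from 151.9 to 306.4 CPM in sh-Ctl livers, so their ranges did not overlap. Dcn differed by 0.74 ± 0.05, Col1a2 by 1.51 ± 0.11, Col3a1 by 1.55 ± 0.12 and Col1a1 by 2.03 ± 0.17.

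Dendritic cell markers were higher in 3 of 3 tested cases (of 8), from 89.0 to 327.0 CPM in sh-Acsf3 and from 35.5 to 308.7 CPM in sh-Ctl livers. They were Cd74 and H2-Ab1, which serve antigen presentation in macrophages too, the first at 1.65 ± 0.16, and Irf8 at 0.70 ± 0.11. Neutrophil markers were called in 0 of 2 tested cases (of 8; edgeR, with 0 at an unadjusted p below 0.05), in 0 by DESeq2 and in 1 by limma-voom, and ran from 2.48 to 27.9 CPM in sh-Acsf3 and from 0.867 to 30.4 CPM in sh-Ctl livers. Without the libraries high in Saa1, 2 of 2 were higher, with a median of 1.17 against 0.43 with them. Sinusoidal endothelial markers were higher in 1 of 10, Ptprb (0.20 ± 0.04), with a median of 0.06, from 183.2 to 307.3 CPM in sh-Acsf3 and from 139.4 to 292.7 CPM in sh-Ctl livers. Cholangiocyte markers were higher in 2 of 3 tested cases (of 6), of which 1 was Spp1, from 58.7 to 139.0 CPM in sh-Acsf3 and from 29.5 to 121.9 CPM in sh-Ctl livers.

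Hepatocyte markers showed 0 higher and 1 lower of 9 tested, with a median of -0.02. The gene was Serpina1a, at -0.14 ± 0.05 (adjusted p = 0.0409, edgeR). That call was lost without replicate 2, 3 or 4 (adjusted p up to 0.182), without the libraries high in Saa1 and without those with pancreas RNA. When scaled by library size alone, 2 of 9 were higher and 0 lower. The 9 summed to between 101901 and 140352 CPM in sh-Acsf3 and between 63101 and 133731 CPM in sh-Ctl livers. Genes of the exocrine pancreas, which lies beside the liver, were called in 0 of 13 tested cases with a median of 3.01 (edgeR). At an unadjusted p below 0.05, 2 passed, while DESeq2 called 12 and limma-voom 0. They summed to more than 100 CPM in 6 sh-Acsf3 and 2 sh-Ctl libraries, and without those 8 libraries the same 5 members were called.

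The 64 libraries held from 0.839 to 9.35 M UMIs in sh-Acsf3 (median 2.03) and from 1.48 to 6.06 M in sh-Ctl livers (median 3.13). Acsf3 itself averaged 2.56 ± 1.68 CPM in sh-Acsf3 and 11.3 ± 2.42 CPM in sh-Ctl livers (-2.23 ± 0.13, adjusted p = 1.82e-21, edgeR). Saa1 exceeded 1000 CPM in 0 sh-Acsf3 libraries and in 4 sh-Ctl libraries. Without those 4 libraries, 8.28% of all genes were called higher in sh-Acsf3 livers and 7 members were, Clec4f (0.38 ± 0.11, adjusted p = 0.0123) and Cd5l (0.40 ± 0.13, adjusted p = 0.0272) beside the 5.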

How the data were processed

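The 64 liver libraries were analysed from the deposited UMI counts per gene, which the authors left without normalization. Per the submitters' processing notes, reads were aligned with STAR to GRCm38 (mm10); the version, the annotation and the merging of UMIs are not given in the sources used here. Replicates differed by more than counting error in all 96 pairs, so none was a copy. Counts were fitted in R 4.3.3 with edgeR 4.0.16 (filterByExpr with minimum count 10 and minimum total 15, TMM scaling, robust quasi-likelihood, 16 group means, 48 residual degrees of freedom). The contrasts were the averaged difference, each time, the interaction and 24 h cosine rhythms, with Benjamini-Hochberg adjustment over 10097 genes and a threshold of 0.05. DESeq2 1.42.0 and limma 3.58.1 (voom) were alternatives, and the fit was tested on simulated data. CPM use TMM-scaled totals, and ± is the SD within times for CPM and the SE for log2 differences. Named genes were the members, Acsf3, up to 4 genes per list with the smallest p, and the 8 most correlated genes, those above 5 CPM being ranked; 1 gene that this rule names is not reported here. The members and lists were chosen with earlier results of these data known. Floors of 3 UMIs cover counting error only, while the 95% intervals come from the fit and include the spread between libraries. Figures were drawn with matplotlib 3.10.9.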

Additional observations from a re-analysis of the deposited data

Results flagged for a closer look

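Of 160 groups of 4 libraries (10 members, 2 treatments, 8 times), 9 held a library whose gap to the nearest other exceeded Dixon's 95% critical value. Chance flags about 1 in 20 groups. In sh-Acsf3 livers, Timd4 was lowest at ZT0 in replicate 1 (2.45 CPM), C1qa highest at ZT12 in replicate 3 (45.7 CPM), and C1qb highest at ZT6 in replicate 1 (82.5 CPM) and at ZT9 in replicate 3 (59.7 CPM). In sh-Ctl livers, ZT6 replicate 1 was highest for Timd4 (13.6 CPM), Cd5l (120.1 CPM) and Adgre1 (28.7 CPM), so 3 of the 9 came from this library. Marco was highest at ZT15 in sh-Ctl replicate 1 (5.47 CPM) and Csf1r at ZT18 in sh-Ctl replicate 2 (27.7 CPM), a library that was also high in Saa1 (2259 CPM).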

How the results depend on the processing

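The count of 5 members higher in sh-Acsf3 livers was 5 with RLE size factors, library size alone, DESeq2, limma-voom and the additive model, and without the pancreas or the shallowest libraries. It was 4 at a mean CPM of at least 5, where Marco and Timd4 were not tested, 8 without a gene filter, 4 to 7 without each replicate number, and 4 to 8 without each library (8 without sh-Ctl ZT6 replicate 1). All genes called were 1461, 971 at a mean CPM of at least 5 and 787 to 1612 without each replicate number or library. Without a filter, 1909 of 23436 genes were called, 1233 of them higher. Single-time calls of members were 0, and 13 without a filter, 1 by DESeq2, 4 in fits on one time alone and 0 to 1 without each library. Of all genes, 107 (ZT18) to 453 (ZT12) were called at a time without a filter, against 3 (ZT15) to 141 (ZT12) with it. List genes called were 46, and 77 without a filter.

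With a replicate block, 5 members and 1558 genes were called, and 47 list genes, and no count of members past the adjusted threshold changed. Whether the numbers pair the samples was not settled. Over 32 same-numbered pairs the correlation of deviations ran from -0.16 to 0.26, and 12 were best with their own number among 4. All 7 correlations over 0.1 were at ZT0, ZT3 or ZT6. A batch shared by number was not tested.

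Single-time differences that did not pass changed sign where libraries were left out. At ZT15, Marco ran from -0.22 (without replicate 2; -0.04 without sh-Acsf3 replicate 2 alone) to 2.54, and C1qa from -0.071 (without sh-Acsf3 replicate 2) to 0.29. At ZT18, C1qa ran from -0.14 (without replicate 1) to 0.34, and at ZT21 from -0.064 (without replicate 3) to 0.43. The cause was not tested. Depth limits Marco and Timd4 most, with 395 and 852 UMIs in all.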
